A study of Mus musculus with 24 samples.

Results

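The 10 genes described here encode acute phase proteins of the liver: the serum amyloid A proteins Saa1 and Saa2, the orosomucoids Orm1, Orm2 and Orm3, haptoglobin (Hp), hemopexin (Hpx), lipocalin 2 (Lcn2), serum amyloid P (Apcs) and inter-alpha-trypsin inhibitor heavy chain 4 (Itih4). They were chosen by name, and all 10 were found among the 15160 genes of the count table and passed the filter on low counts, which left 13336 genes tested. The data are 3′ end RNA counts from 24 livers of male mice, 1 library per mouse, with 6 mice in each of 4 groups. WT mice (NRF2fl/fl) carry floxed alleles of Nfe2l2, the gene for the transcription factor NRF2, and no Cre, and NRF2 KO mice (NRF2fl/(alb)) carry the same floxed alleles together with Cre driven by the albumin promoter, which acts in hepatocytes and leaves the gene in the other cells of the liver. Mice of both genotypes ate an amino acid diet without cysteine with methionine at 0.86% (the control diet, Con) or at 0.17% (methionine restriction, MR), started at 8 weeks of age and kept for 8 weeks and the tests that followed, and livers were taken at 5 months of age after a 4 h fast. The mice WT_CON_7604 and WT_MR_7612, which the study set aside as outliers, were left out, which leaves 5 WT mice and 6 NRF2 KO mice on each diet.

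The acute phase response is the change in plasma protein output by which the liver answers infection, injury and inflammation. Cytokines, chiefly interleukin 6 acting through STAT3 and interleukin 1 acting through NF-kB and the C/EBP factors, raise transcription of positive acute phase genes in hepatocytes, with glucocorticoids acting beside them. In the mouse the serum amyloid A proteins, orosomucoids, haptoglobin, hemopexin, lipocalin 2 and serum amyloid P are all known to rise in this response.

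The 22 libraries held between 6197291 and 22068338 counts, with a median of 15019792. Levels are given as CPM, counts per 1000000 counts of the library with edgeR's TMM factors, and since 3′ sequencing reads the end of each transcript the values were not divided by gene length. The 9 hepatocyte markers summed to between 73328 and 124790 CPM in every mouse. The Cre deletes exon 5 of Nfe2l2, for which the study checked the genotypes by PCR, not analysed here. The 3′ counts of this gene cannot stand in for that check, as they were higher in NRF2 KO than in 9 of the 10 WT libraries: Nfe2l2 was 281 ± 43.9 CPM in NRF2 KO Con (SD, n = 6) and 226 ± 15.8 CPM in NRF2 KO MR (SD, n = 6). The library labelled WT_CON_7607 stood at 324 CPM, within the range of NRF2 KO Con, against 94.0 to 125 CPM in the 9 other libraries of WT mice, so calls on the 10 genes that change without it are given below.

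The first question was what MR does to these genes in WT liver. Of the 10 genes, 7 were lower on MR (Saa1, Saa2, Orm1, Orm2, Orm3, Hp and Lcn2), 1 was higher (Apcs), and Hpx and Itih4 did not pass edgeR's quasi-likelihood test at an adjusted p under 0.05. Over all genes tested, 6.91% were lower and 6.91% higher by the same rule. In NRF2 KO liver 6 of the 10 were lower on MR (Saa1, Saa2, Orm1, Orm2, Orm3 and Hp) and 1 was higher (Apcs), beside 6.34% of all genes lower and 6.23% higher. The median log2 fold change of the 10 genes was -1.91 in WT and -1.37 in NRF2 KO, and that of all genes tested was -0.0062 and -0.0042. In WT the MR mice lay below every Con mouse for 6 of the 10 genes (4.00% of all genes) and above every Con mouse for 1 (5.32% of all genes). In NRF2 KO the MR mice lay below every Con mouse for 5 of the 10 (2.83% of all genes) and above every Con mouse for 0 (2.62% of all genes). Without the library labelled WT_CON_7607 there were 7 calls in WT, since Apcs no longer passed. In bulk liver a smaller number of cells of one type and less RNA per cell cannot be told apart. The 4 groups share one estimate of the spread for each gene, so each p-value rests on the spread between mice in all 4 groups. The labels do not give cages, litters or preparation days, so these could not be taken into account.

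**Figure D1:**
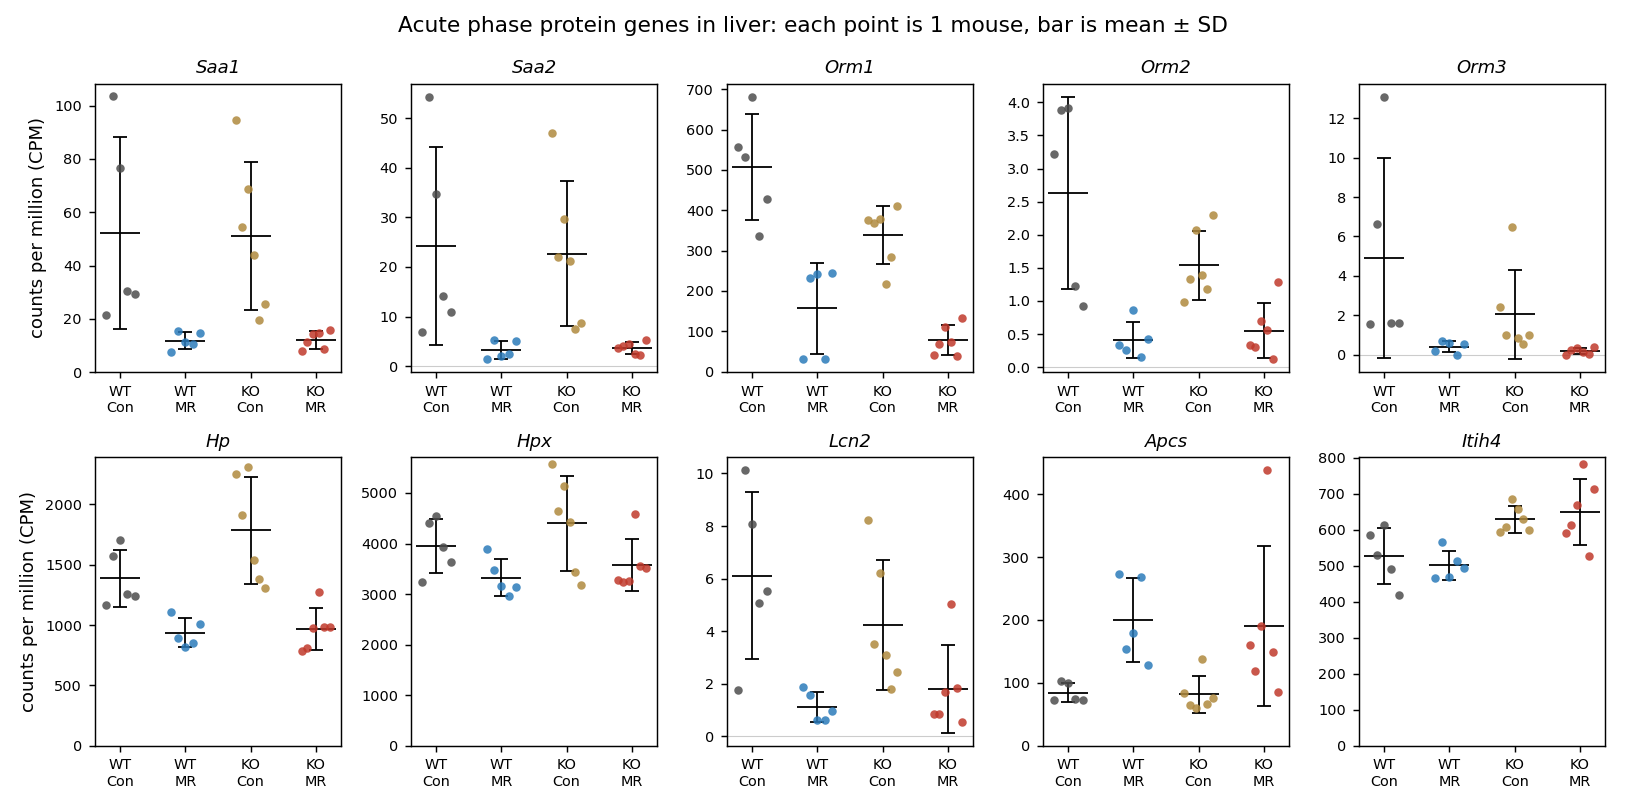
Level of each of the 10 genes in CPM (vertical axis, linear, 1 panel per gene) in the 22 mice, by genotype (WT, or KO for NRF2 KO) and diet. Each point is 1 mouse and the bars are the mean ± SD. Saa1 and Saa2 sit low and close together on MR in both genotypes, Orm1 in WT MR falls into 2 mice at 31.3 and 32.2 CPM and 3 mice at 232 CPM or more, and Apcs is higher on MR.

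Saa1 and Saa2 encode the serum amyloid A apolipoproteins that join high density lipoprotein during inflammation. Saa1 (ENSMUSG00000074115) spans positions 46740497 to 46742980 of chromosome 7 on the minus strand and Saa2 (ENSMUSG00000057465) spans 46751790 to 46754313 of the same chromosome on the plus strand (GRCm38, GENCODE M21), so the genes face away from each other. No other annotated gene overlaps any of the 10. The 250 bases before each start, taken from RefSeq on GRCm38.p6 and written 5′ to 3′ on the gene's strand, are shown because this pair of genes moved together. Capitals mark matches to TTGCNNAA, a motif of C/EBP factors.
Saa1 (chr7:46742981-46743230, minus): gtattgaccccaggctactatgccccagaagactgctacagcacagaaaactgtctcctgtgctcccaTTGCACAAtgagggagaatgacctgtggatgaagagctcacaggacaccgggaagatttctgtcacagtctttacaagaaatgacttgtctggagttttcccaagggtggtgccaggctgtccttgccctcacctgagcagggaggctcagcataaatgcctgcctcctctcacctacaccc
Saa2 (chr7:46751583-46751832, plus): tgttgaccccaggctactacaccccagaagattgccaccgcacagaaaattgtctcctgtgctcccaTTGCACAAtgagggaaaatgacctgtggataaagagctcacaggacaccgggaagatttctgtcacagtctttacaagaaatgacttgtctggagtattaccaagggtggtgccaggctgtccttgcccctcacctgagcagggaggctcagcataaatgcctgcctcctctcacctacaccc
The promoters are identical at 95.2% of aligned positions, and the match TTGCACAA begins 182 bases before the Saa1 start and 183 bases before the Saa2 start. RefSeq promoters were at hand for 8 of the 10 genes (none for Orm1 and Hp). Of the 8, 6 held a match to this C/EBP motif, the exceptions being Apcs and Itih4, and of 32851 mouse promoters of the same length 9.56% hold one. The matches of Saa1 and Saa2 lie in near copies, as do those of Orm2 and Orm3 (87.6% identical), so the 6 are not independent. A STAT motif, TTCNNNGAA, was found in Apcs and Itih4 and in 7.02% of all promoters, and the NF-kB consensus in 0 of the 8 and in 7.25% of all promoters. RefSeq and GENCODE place some starts differently, so the stretches of Saa2 and Hpx run into the GENCODE gene span and that of Lcn2 lies within it. Both strands were searched, no matches overlapped, and a match is a description of the letters, not evidence of binding.

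WT values are given in the order of WT_CON_7602, WT_CON_7603, WT_CON_7605, WT_CON_7607 and WT_CON_7608 on Con and WT_MR_7609, WT_MR_7611, WT_MR_7613, WT_MR_7615 and WT_MR_7616 on MR. In the 5 WT Con mice Saa1 stood at 21.5, 103, 76.5, 30.3 and 29.2 CPM, and in the 5 WT MR mice at 7.50, 15.4, 11.4, 10.4 and 14.5 CPM. Every MR mouse was below every Con mouse, and the Con mice were spread over a 4.81-fold range while the MR mice were spread over a 2.05-fold range. The fall was 4.37-fold (log2 fold change -2.13, SE 0.47, adjusted p = 0.0059 from edgeR). In NRF2 KO Con Saa1 ran from 19.6 to 94.5 CPM with a median of 49.2, and in NRF2 KO MR from 7.74 to 15.7 CPM with a median of 12.7. The groups again did not overlap, and the fall was 4.29-fold (log2 fold change -2.10, SE 0.42, adjusted p = 0.0033 from edgeR). Saa2 stood at 6.87, 54.4, 34.8, 14.2 and 10.9 CPM in WT Con and at 1.46, 5.35, 1.99, 2.41 and 5.01 CPM in WT MR. Here too no MR mouse reached the lowest Con mouse, and the log2 fold change was -2.84 (SE 0.62, adjusted p = 0.0056 from edgeR), a 7.18-fold fall. In NRF2 KO the range moved from 7.45 to 47.1 CPM on Con, with a median of 21.6, to 2.22 to 5.22 CPM on MR, with a median of 3.83. This was a log2 fold change of -2.68 (SE 0.54, adjusted p = 0.0037 from edgeR). The transcripts of Saa1 and Saa2 may share reads, depending on read length: 9.56% of the 50 base words in the last 300 bases of each occur in the other, and 0% of the 75 base words. With the counts of both genes summed the log2 fold change was -2.33 in WT and -2.24 in NRF2 KO.

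Orm1, Orm2 and Orm3 encode the orosomucoids (alpha-1-acid glycoproteins), plasma lipocalins that bind basic and neutral drugs and modulate immune cells. The genes lie side by side on the plus strand of chromosome 4, with Orm1 (ENSMUSG00000039196) from 63344560 to 63348163, Orm3 (ENSMUSG00000028359) from 63356162 to 63359511 and Orm2 (ENSMUSG00000061540) from 63362449 to 63365878. The 250 bases before the starts of Orm2 and Orm3, of the same source and build, show how near these copies are, with the C/EBP motif in capitals.
Orm2 (chr4:63362199-63362448, plus): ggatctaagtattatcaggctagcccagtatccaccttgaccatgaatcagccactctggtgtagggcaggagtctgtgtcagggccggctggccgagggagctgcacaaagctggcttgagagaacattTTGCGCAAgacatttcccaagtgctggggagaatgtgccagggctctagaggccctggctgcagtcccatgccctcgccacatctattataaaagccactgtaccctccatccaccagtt
Orm3 (chr4:63355908-63356157, plus): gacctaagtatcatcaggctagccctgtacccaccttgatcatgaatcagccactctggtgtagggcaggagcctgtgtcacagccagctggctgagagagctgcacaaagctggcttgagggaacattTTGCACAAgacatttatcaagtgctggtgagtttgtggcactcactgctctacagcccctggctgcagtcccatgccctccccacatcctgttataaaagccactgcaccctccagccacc
These promoters are identical at 87.6% of aligned positions, and the matches TTGCGCAA and TTGCACAA begin 120 and 121 bases before the start.

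Orm1, which took most of the family's counts, stood at 558, 531, 681, 336 and 429 CPM in WT Con and at 31.3, 232, 242, 32.2 and 244 CPM in WT MR. All MR mice were below all Con mice, and within WT MR WT_MR_7609 and WT_MR_7615 were far below WT_MR_7611, WT_MR_7613 and WT_MR_7616. The log2 fold change was -1.69 (SE 0.51, adjusted p = 0.034 from edgeR), and the call was lost without any one of WT_CON_7603, WT_CON_7605, WT_MR_7609 or WT_MR_7615 (adjusted p from 0.055 to 0.068) and in a fit of the WT groups alone (adjusted p = 0.13). In NRF2 KO Orm1 ran from 217 to 409 CPM on Con, with a median of 372, and from 37.7 to 133 CPM on MR, with a median of 71.6. These groups did not overlap, and the fall was 4.36-fold (log2 fold change -2.13, SE 0.47, adjusted p = 0.0069 from edgeR). The 3 higher WT MR mice had no counterpart among the NRF2 KO MR mice.

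Orm2 stood at 3.22, 3.88, 3.91, 1.23 and 0.924 CPM in WT Con and at 0.332, 0.260, 0.864, 0.151 and 0.432 CPM in WT MR. The WT groups did not overlap, with a log2 fold change of -2.64 (SE 0.51, adjusted p = 0.0015 from edgeR). In NRF2 KO the groups overlapped, from 0.983 to 2.3 CPM on Con with a median of 1.36 and from 0.126 to 1.29 CPM on MR with a median of 0.450, and the log2 fold change was -1.52 (SE 0.44, adjusted p = 0.027 from edgeR). That call was lost without any one of KO_CON_7620, KO_MR_7625, KO_MR_7627 or KO_MR_7631, with adjusted p from 0.052 to 0.065 in edgeR's test. Orm3 stood at 1.54, 6.62, 13.1, 1.59 and 1.60 CPM in WT Con and at 0.199, 0.675, 0.605, 0 and 0.518 CPM in WT MR. The mice WT_CON_7603 and WT_CON_7605 were far above the other 3 WT Con mice, and no MR mouse reached the lowest of these. The log2 fold change was -3.45 (SE 0.85, adjusted p = 0.011 from edgeR), the most negative of the 10 genes in WT, and -2.63 without WT_CON_7605. In NRF2 KO Orm3 ran from 0.545 to 6.48 CPM on Con, with a median of 0.985, and from 0 to 0.407 CPM on MR, with a median of 0.193, a log2 fold change of -3.57 (SE 0.90, adjusted p = 0.014 from edgeR), and -2.74 without KO_CON_7620. Both minor copies rest on few counts, from 1 to 10 for Orm2 and from 0 to 13 for Orm3 in the WT MR libraries. Of the 50 base words in the last 300 bases of Orm2, 58.6% occur in Orm1 and 10.4% in Orm3, and of the 75 base words 42.9% and 0.44%, so part of the counts of the minor copies is uncertain. With the 3 genes summed, a sum set by Orm1, the log2 fold change was -1.71 in WT and -2.13 in NRF2 KO.

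Hp and Hpx encode the scavengers of free hemoglobin and free heme. Hp (ENSMUSG00000031722) spans positions 109575128 to 109579172 of chromosome 8 and Hpx (ENSMUSG00000030895) spans 105591613 to 105600137 of chromosome 7, both on the minus strand. Hp stood at 1163, 1570, 1701, 1259 and 1242 CPM in WT Con and at 1111, 896, 819, 848 and 1013 CPM in WT MR. The groups did not overlap, though the nearest mice, WT_CON_7602 on Con and WT_MR_7609 on MR, differed by little. The fall was 1.48-fold (log2 fold change -0.56, SE 0.16, adjusted p = 0.020 from edgeR), and it no longer passed without any one of WT_CON_7603, WT_CON_7605, WT_MR_7613 or WT_MR_7615, with adjusted p from 0.051 to 0.057 in edgeR's test. In NRF2 KO Hp ran from 1307 to 2313 CPM on Con, with a median of 1725, and from 783 to 1277 CPM on MR, with a median of 978. The groups were separate, with a 1.84-fold fall (log2 fold change -0.88, SE 0.15, adjusted p = 4.0e-04 from edgeR), which passed in every fit that left out 1 mouse. Hpx moved less: its mean was 3950 ± 539 CPM in WT Con and 3322 ± 365 CPM in WT MR (SD, n = 5 each), with overlap, and the log2 fold change was -0.25 (95% interval -0.54 to 0.04, adjusted p = 0.25 from edgeR). In NRF2 KO it was 4401 ± 938 CPM on Con and 3572 ± 518 CPM on MR (SD, n = 6 each), with a log2 fold change of -0.30 (95% interval -0.56 to -0.04, adjusted p = 0.12 from edgeR). Without KO_CON_7623 the value in NRF2 KO was -0.38 and passed (adjusted p = 0.038 from edgeR).

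Lcn2 encodes lipocalin 2, which withholds iron from bacteria by binding their siderophores and is made by hepatocytes and by neutrophils. The gene (ENSMUSG00000026822) spans positions 32384633 to 32388252 of chromosome 2 on the minus strand. The 250 bases before its RefSeq start lie inside this GENCODE span, as the 2 sources place the start differently. They are shown with the C/EBP motif in capitals, for comparison with the serum amyloid A and orosomucoid promoters.
Lcn2 (chr2:32387740-32387989, minus): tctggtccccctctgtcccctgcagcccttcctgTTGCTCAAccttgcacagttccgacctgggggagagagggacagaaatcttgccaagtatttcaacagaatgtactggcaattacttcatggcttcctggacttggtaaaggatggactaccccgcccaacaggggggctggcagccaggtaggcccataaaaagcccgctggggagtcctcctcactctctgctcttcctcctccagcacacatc
The match TTGCTCAA begins 216 bases before the start. Lcn2 stood at 1.75, 10.1, 8.09, 5.06 and 5.55 CPM in WT Con and at 1.86, 1.56, 0.605, 0.603 and 0.950 CPM in WT MR. The groups met only through WT_CON_7602, which was lower than WT_MR_7609 and was the lowest WT Con mouse for 6 of the 8 genes other than Apcs and Itih4. The fall was 5.07-fold (log2 fold change -2.34, SE 0.59, adjusted p = 0.012 from edgeR). In NRF2 KO Lcn2 ran from 1.82 to 8.23 CPM on Con, with a median of 3.31, and from 0.543 to 5.02 CPM on MR, with a median of 1.27. The MR mouse KO_MR_7629, at 5.02 CPM, lay above the Con median, and the log2 fold change of -1.22 (95% interval -2.23 to -0.20) did not pass (adjusted p = 0.11 from edgeR). Without this mouse the value was -1.86 and passed (adjusted p = 0.016 from edgeR). Of 12 neutrophil markers fixed for comparison 5 were in the count table and 3 could be tested, of which Retnlg was lower in WT (-0.96, adjusted p = 0.028 from edgeR) and none passed in NRF2 KO. The summed level of the neutrophil markers was 8.19 to 15.0 CPM in WT Con, 6.75 to 7.99 in WT MR, 5.79 to 9.35 in NRF2 KO Con and 5.22 to 14.7 in NRF2 KO MR. Among those absent from the table were Ly6g, Mpo and Elane, and the part of these cells in the Lcn2 values was not tested.

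Apcs encodes serum amyloid P, a pentraxin that binds amyloid fibrils and bacterial surfaces and is a main acute phase protein of the mouse. It was the 1 gene of the 10 that rose. Apcs (ENSMUSG00000026542) spans positions 172893961 to 172895041 of chromosome 1 on the minus strand. Its promoter holds no C/EBP match. That of Itih4, which did not pass on MR, holds none either, while that of Hpx, which also did not pass, holds 1. A link between the motif and the direction of change was not tested. The 250 bases before the Apcs start are shown. Capitals mark the STAT motif.
Apcs (chr1:172895055-172895304, minus): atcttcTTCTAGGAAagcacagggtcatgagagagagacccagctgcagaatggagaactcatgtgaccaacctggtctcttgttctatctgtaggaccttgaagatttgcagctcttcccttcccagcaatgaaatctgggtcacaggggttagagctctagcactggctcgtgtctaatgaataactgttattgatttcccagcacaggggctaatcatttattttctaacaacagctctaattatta
The match TTCTAGGAA begins 244 bases before the start. Apcs stood at 73.3, 103, 99.4, 73.9 and 72.4 CPM in WT Con and at 273, 154, 179, 268 and 128 CPM in WT MR. Among the mice kept, every MR mouse was above every Con mouse, which does not hold once WT_CON_7604 is included. The highest were WT_MR_7609 and WT_MR_7615, the mice in which Orm1 was lowest. The rise was 2.37-fold (log2 fold change 1.25, SE 0.36, adjusted p = 0.027 from edgeR), and the call was lost without any one of WT_CON_7602, WT_CON_7607, WT_CON_7608, WT_MR_7609 or WT_MR_7615 (adjusted p from 0.053 to 0.067). In NRF2 KO Apcs ran from 59.9 to 138 CPM on Con, with a median of 71.4, and from 84.9 to 439 CPM on MR, with a median of 155. The groups overlapped, and the log2 fold change was 1.22 (SE 0.33, adjusted p = 0.020 from edgeR). Without KO_MR_7629, which held the 439 CPM, it was 0.78 and did not pass (adjusted p = 0.051 from edgeR), and in a fit of the NRF2 KO groups alone it did not pass either (adjusted p = 0.064).

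Itih4 encodes a heavy chain of the inter-alpha-trypsin inhibitor family, a plasma substrate of kallikrein. The gene (ENSMUSG00000021922) spans positions 30886476 to 30902353 of chromosome 14 on the plus strand. It was 528 ± 77.2 CPM in WT Con and 501 ± 40.7 CPM in WT MR (SD, n = 5 each), and 629 ± 36.9 CPM in NRF2 KO Con and 650 ± 92.0 CPM in NRF2 KO MR (SD, n = 6 each). MR gave a log2 fold change of -0.07 in WT (95% interval -0.29 to 0.14) and 0.05 in NRF2 KO (95% interval -0.15 to 0.24), and with library size alone as the scale the WT value was 0.03.

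**Figure D2:**
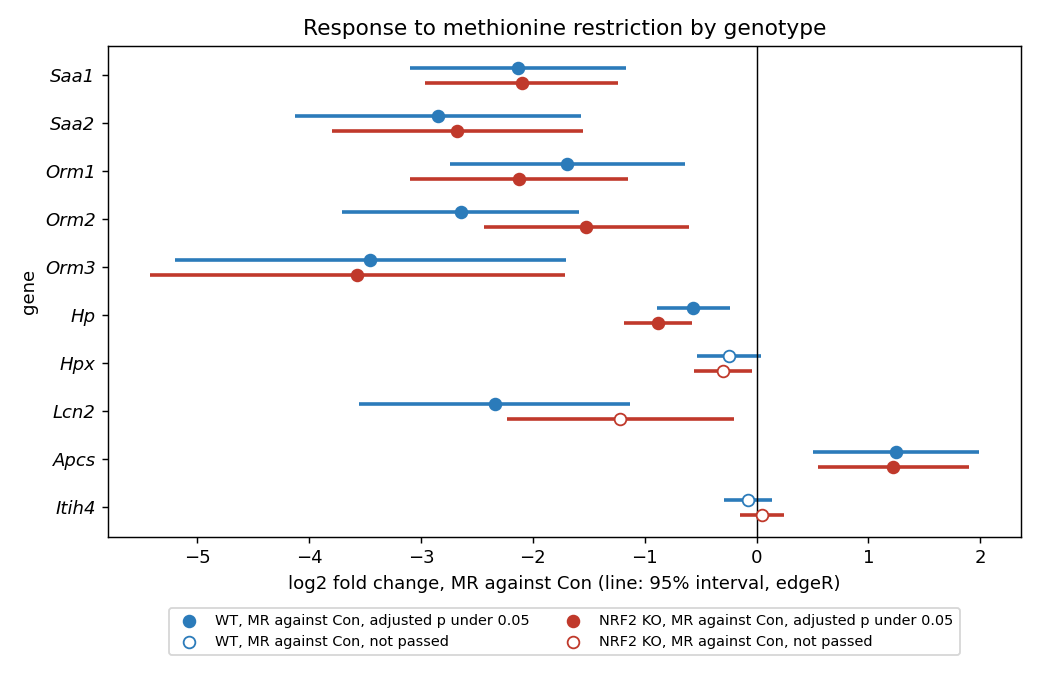
Log2 fold change of each gene, MR against Con (horizontal axis), in WT (blue) and NRF2 KO (red), with lines for the 95% interval from edgeR and filled points for an adjusted p under 0.05. The intervals of both genotypes overlap for all 10 genes, and Apcs alone lies to the right of zero in both genotypes with filled points.

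The second question was whether hepatic NRF2 changes the level of these genes or their response to MR. These comparisons share their groups with those above. On Con 0 of the 10 genes differed between NRF2 KO and WT by edgeR's adjusted p, beside 2.07% of all genes, and on MR 0 of the 10, beside 1.93%. DESeq2 called 0 on Con and 1, Itih4, on MR. Before adjustment 2 of the 10 had a p under 0.05 on each diet, Hp and Itih4 on Con and Orm1 and Itih4 on MR. Of all 13336 genes tested, 1917 had such a p on Con and 1851 on MR. Itih4 was nearest to a call, with NRF2 KO above WT by 0.25 on the log2 scale on Con (95% interval 0.05 to 0.46, adjusted p = 0.23 from edgeR) and by 0.37 on MR (95% interval 0.17 to 0.58, adjusted p = 0.051 from edgeR). On MR its adjusted p was 0.012 with DESeq2, and it passed over all 24 mice (adjusted p = 0.046 from edgeR) and without the library labelled WT_CON_7607 (0.37, adjusted p = 0.045 from edgeR). Orm1 was lower in NRF2 KO by -0.58 on Con (95% interval -1.56 to 0.39) and by -1.02 on MR (95% interval -2.0 to -0.03, adjusted p = 0.36 from edgeR). Hp was higher in NRF2 KO on Con by 0.36 (95% interval 0.05 to 0.68, adjusted p = 0.26 from edgeR). Saa1 differed by -0.02 on Con, with an interval of -0.87 to 0.83.

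The difference of the MR response between genotypes, tested as an interaction, passed for 0 of the 10 genes, beside 0.0450% of all genes (6 of 13336). Before adjustment 1008 genes had a p under 0.05 and 0 of the 10 were among them, and DESeq2 also called 0 of the 10. The intervals were wide. For Orm2 the fall was smaller in NRF2 KO by 1.12 on the log2 scale (95% interval -0.33 to 2.57), and for Lcn2 also by 1.12 (95% interval -0.47 to 2.72). Without KO_MR_7629 the Lcn2 value was 0.49, and with quality weights over all 24 mice it was 0.56. For Orm1 and Hp the falls in NRF2 KO exceeded those in WT by values of -0.43 (95% interval -1.82 to 0.96) and -0.32 (95% interval -0.76 to 0.13). The closest match was Saa1, at 0.03 (95% interval -1.24 to 1.30). A p that misses the threshold does not show that the responses were alike.

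The third question was how the genes vary together from mouse to mouse once the group means are taken away. For the 22 mice the deviation of each gene's log2 CPM from its group mean was compared over all 45 pairs, with p from 100000 permutations within groups and Benjamini-Hochberg adjustment over the 45. Of the 45 pairs 14 passed with Pearson's r, all of them positive, and the same 14 were among the 16 that passed with Spearman's rho. Without the 2 mice farthest from the median of the first gene, r kept its sign in all 14. As these pairs were picked for a large r, a kept sign is a weak check. The values of a pair come from the same libraries, so they share depth and composition. Saa1 and Saa2 gave r = 0.92 (permutation p = 2.0e-05, adjusted p = 3.0e-04) and rho = 0.90 (permutation p = 2.0e-05), and r = 0.89 without WT_CON_7603 and KO_CON_7622. Hp and Hpx gave r = 0.91 and rho = 0.88, each with a permutation p of 1e-05, the smallest these permutations can give (adjusted p = 2.3e-04 for r), with r = 0.88 without 2 mice and 0.64 over all 24.

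Lcn2 followed both scavengers, with r = 0.83 with Hpx (adjusted permutation p = 2.3e-04, rho = 0.82) and r = 0.80 with Hp (adjusted permutation p = 3.4e-04, rho = 0.80). Saa1 was correlated with each of Orm1, Orm3, Hp, Hpx and Lcn2 (r from 0.42 to 0.78). The 3 orosomucoids were correlated with each other (r from 0.59 to 0.65). The part in these values of reads shared between near-identical genes, as between Orm1 and Orm2, was not tested. Orm3 was also correlated with Saa2 (r = 0.70, adjusted permutation p = 0.013, rho = 0.73) and with Hp (r = 0.61, adjusted permutation p = 0.021, rho = 0.59), and with Hpx by Spearman's rho alone (rho = 0.57, adjusted permutation p = 0.037, r = 0.52). Orm1 did not pass with Hp (r = 0.08, adjusted permutation p = 0.75, rho = 0.14), Hpx (r = -0.02, adjusted permutation p = 0.94, rho = 0.03) or Lcn2 (r = -0.03, adjusted permutation p = 0.90, rho = 0.01). Whether these values differ from those of the passing pairs was not tested. Apcs passed with none of the 9 others: with Orm1 r was -0.42 (permutation p = 0.077, adjusted p = 0.14, rho = -0.42), and -0.30 without WT_MR_7609 and WT_MR_7615, and with Lcn2 it was 0.53 (permutation p = 0.026, adjusted p = 0.062, rho = 0.38). Itih4 also passed with none, the nearest being Orm2 (r = 0.60, adjusted permutation p = 0.054, rho = 0.54).

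**Figure D3:**
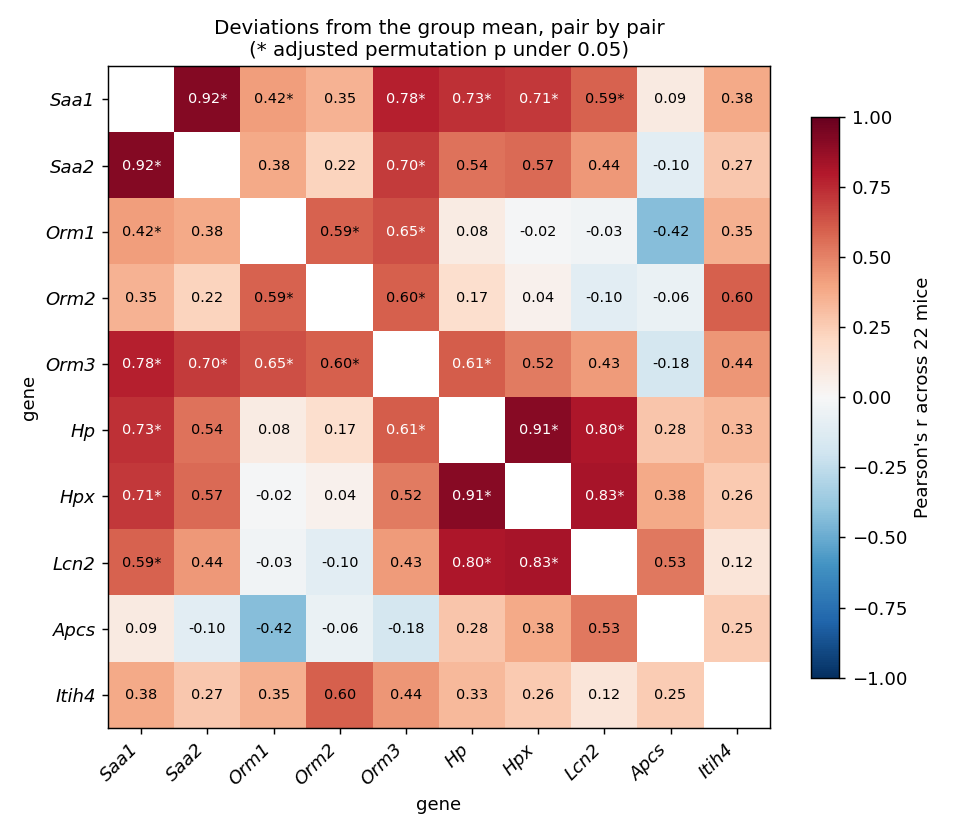
Pearson's r between the deviations from the group mean of each pair of the 10 genes over 22 mice, from blue (-1) to red (1), with a star for a permutation p adjusted over 45 pairs under 0.05. Stars link Saa1 to 6 other genes, the 3 orosomucoids to each other and Hp, Hpx and Lcn2 to each other, and none lies in the rows of Apcs and Itih4.

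In NRF2 KO Con KO_CON_7617 was highest for 4 of the 8 genes other than Apcs and Itih4 (Saa1, Saa2, Hpx and Lcn2) and lowest for 1 (Orm2). In WT Con WT_CON_7605 was highest for 5 of the 8 (Orm1, Orm2, Orm3, Hp and Hpx) and WT_CON_7603 for the other 3. On MR some mice stood at both ends of their group. WT_MR_7609 was highest for 3 of the 8 and lowest for 3, and KO_MR_7632 was highest for 5 and lowest for 1 (Lcn2). Of the mice left out, on the scale of all 24 mice, WT_CON_7604 had Saa1 at 93.5 CPM and Saa2 at 43.6 CPM, inside the range of the other WT Con mice. It had Hpx at 6823 CPM, Lcn2 at 14.9 CPM and Apcs at 157 CPM, above all of them. On the same scale Apcs was 155 CPM in WT_MR_7611 and 129 CPM in WT_MR_7616. With WT_CON_7604 included the WT diet groups therefore overlapped for Apcs. The mouse WT_MR_7612 had Orm1 at 28.4 CPM, as WT_MR_7609 and WT_MR_7615 had, and Apcs at 532 CPM, the highest of the 24. With both mice included the same 8 genes passed in WT and the same 7 in NRF2 KO.

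The other genes of the response were read from lists, by the rule that called 6.91% of all genes lower and 6.91% higher in WT. In NRF2 KO these shares were 6.34% and 6.23%. Of 28 other positive acute phase genes tested, 5 were lower and 1 was higher on MR in WT, and 6 were lower and 1 higher in NRF2 KO, with medians of -0.18 and -0.09. C4b, a complement protein, fell in both (-0.75 and -0.67, adjusted p = 0.0035 and 0.0045 from edgeR), as did Serpina3n, a protease inhibitor (-0.70 and -0.47, adjusted p = 0.0031 and 0.026 from edgeR), and Mbl1, a mannose-binding lectin (-0.27 and -0.28, adjusted p = 0.039 and 0.019 from edgeR). Saa3, the serum amyloid A made largely outside hepatocytes, fell in NRF2 KO (-0.92, adjusted p = 0.0048 from edgeR) and had -0.36 in WT (adjusted p = 0.32). Lbp, which carries bacterial lipopolysaccharide, rose in both (0.45 and 0.45, adjusted p = 0.036 and 0.024 from edgeR). The other genes that fell in WT were Hamp2 (-1.94), whose reads may be shared with its near copy Hamp (0.63, adjusted p = 0.15 from edgeR), and Cd14 (-0.74), and those that fell in NRF2 KO were Serpina1c (-0.65) and Serpina1d (-0.50). Crp, which changes little in mouse inflammation, had values of -0.20 and -0.11 (adjusted p = 0.23 and 0.52 from edgeR). Of 10 negative acute phase genes, which are known to fall in inflammation, Serpina6, the corticosteroid-binding globulin, rose in both (0.86 and 0.87), Rbp4 rose in WT (0.36), and Apoa1 fell in both (-0.64 and -0.32).

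Signaling genes were read by the same rule, by which 6.91% of all genes were lower and 6.91% higher in WT and 6.34% and 6.23% in NRF2 KO. Of 12 genes of interleukin 6 and STAT3 signaling tested, Il6ra, the interleukin 6 receptor, rose in both genotypes (0.51 and 0.39, adjusted p = 0.012 and 0.032 from edgeR) and Lifr fell in WT (-0.49, adjusted p = 0.027 from edgeR). Stat3 itself had values of -0.19 and 0.15 (adjusted p = 0.33 and 0.45 from edgeR), and Socs3, a direct target of STAT3, had -0.39 and 1.13 (adjusted p = 0.60 and 0.065 from edgeR). Il6 was not listed in the counts. Of 18 genes of C/EBP, NF-kB and interleukin 1 or TNF signaling, Il1b fell in WT (-0.91, adjusted p = 0.010 from edgeR) while Cebpd and Nfkbia rose there (0.59 and 0.40), and Cebpa fell in NRF2 KO (-0.47, adjusted p = 0.0031 from edgeR). Of 9 genes of the glucocorticoid receptor and its targets, Fkbp5 and Tsc22d3 rose in WT (0.66 and 0.78) and Dusp1 fell in NRF2 KO (-0.68). Of 5 hemoglobin, heme and iron receptors, Slc40a1, the iron exporter ferroportin, and Tfrc, the transferrin receptor, rose in WT (0.70 and 1.08), and 0 of the 5 passed in NRF2 KO. None of these lists was compared with the others by a test.

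**Figure D4:**
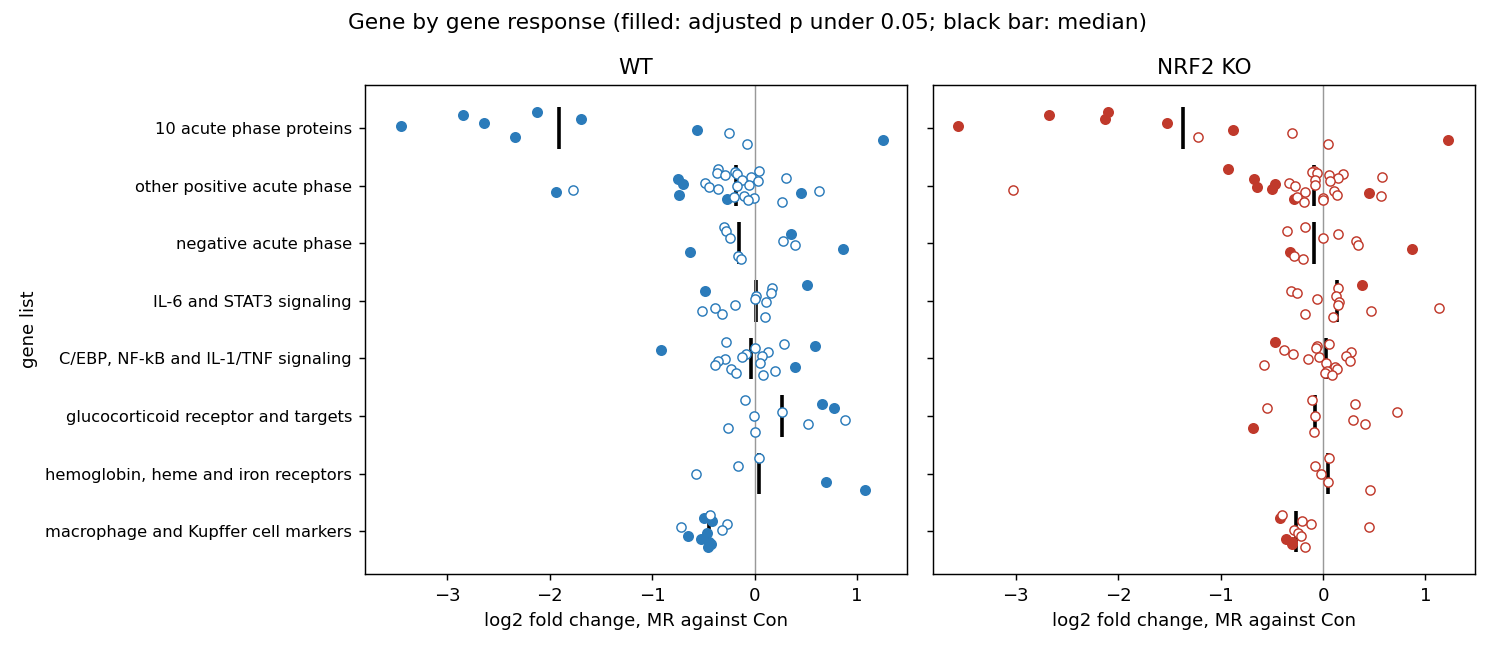
Log2 fold change of single genes, MR against Con (horizontal axis), for the 10 genes and 7 comparison lists (rows) in WT (left, blue) and NRF2 KO (right, red), with filled points for an edgeR adjusted p under 0.05 and a black bar at each median. The medians of the 10 genes lie at -1.91 and -1.37, and those of the 28 other positive acute phase genes at -0.18 and -0.09.

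Some markers of macrophages and Kupffer cells were also lower on MR. Of 12 such markers 8 passed as lower in WT (Clec4f -0.50, Csf1r -0.46, C1qa -0.52), beside 6.91% of all genes. In NRF2 KO 4 passed (among them Clec4f -0.42 and C1qa -0.36), beside 6.34% of all genes. There Csf1r (-0.25, adjusted p = 0.13 from edgeR) and Marco (0.45, adjusted p = 0.62 from edgeR) did not pass. The summed level of the 12 ran from 577 to 782 CPM in WT Con and from 455 to 521 in WT MR. In NRF2 KO the ranges overlapped, from 495 to 733 CPM on Con and from 428 to 575 on MR. Of the hepatocyte markers 1 of 9, Apoa1, was lower in each genotype, beside 6.91% and 6.34% of all genes. Their summed level, set mostly by Alb, also had a lower median on MR, with overlap. It was 102777 CPM in WT Con (82572 to 110794) and 81159 in WT MR (73328 to 89127). In NRF2 KO it was 116402 CPM on Con (105573 to 124790) and 97563 on MR (90716 to 112353). Among red blood cell markers Alas2 alone passed, lower in both, and their summed level overlapped between diets in each genotype (2089 to 2584 CPM in WT Con and 1298 to 3184 in WT MR). Adipocyte markers summed to 19.7 to 30.3 CPM in WT Con and 12.7 to 14.2 in WT MR, with Fabp4 lower (-0.85), and to 14.9 to 31.5 and 11.7 to 19.6 in NRF2 KO, while Adipoq, Plin1 and Retn were not counted or were below the filter. Acinar pancreas markers summed to 21.8 to 64.7 CPM in WT Con, 18.8 to 25.6 in WT MR, 32.6 to 87.6 in NRF2 KO Con and 18.1 to 65.9 in NRF2 KO MR, with Cela1 lower in NRF2 KO (-1.43). The part of these cells in the results was not tested.

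The genes whose level across the 22 mice was most like the mean of the 10 (each scaled to its own mean and SD) were Serpina3n (Pearson's r = 0.91), Nat8f7 (0.88), Fuca1 (0.88), C4b (0.88) and Trim7 (0.87). These values span the diet groups and are given as a description. Among the 10 themselves Saa1 was closest to the mean of the other 9 (r = 0.94), followed by Hp (0.88) and Saa2 (0.87), while Itih4 (0.20) and Apcs (-0.58) stood apart.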

How the data were processed

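RNA from 24 mouse livers was made into QuantSeq 3′ FWD libraries, and the deposited table of raw counts per gene (Ensembl identifiers, GRCm38/mm10) came from the Lexogen QuantSeq pipeline run by the authors; the aligner and annotation are not given in the sources used here. The labels give reads of 50 bases and the study's methods 75, so words shared by near-identical genes were counted at both lengths. The authors also deposited normalized counts, a signal scaled by DESeq2 1.18.1 in R 3.4.3 per the labels, used here for gene symbols and 1 alternative. There were 0 further per-sample columns.

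Groups came from the labels. Counts of 22 mice were fitted with edgeR 4.0.16 (R 4.3.3, limma 3.58.1) with filterByExpr, TMM factors, a model of 4 group means and the robust quasi-likelihood F-test, with Benjamini-Hochberg adjustment over 13336 genes and a threshold of 0.05; log2 CPM used a prior count of 2. Of 15160 genes 1824 were filtered out. On simulated counts with 200 changed genes, tested before use, the fit of MR in WT recovered most of them. These counts were drawn from the model that edgeR had fitted, so this checks the code and not the calls on the real data. Pair correlations used SciPy 1.17.1 and numpy 2.4.6, and aligned identity Biopython 1.88. Promoters are RefSeq entries on GRCm38.p6, cut to the 250 bases before the start, and gene positions and transcripts are from GENCODE M21.

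Alternatives were DESeq2 1.42.0, other scaling factors, other filters (none, or 10 counts required of every mouse), the authors' normalized values as log2(value + 1) in limma, only the groups compared, all 24 mice with and without quality weights, summed near-identical genes, and each mouse left out. The 10 genes and the comparison lists were chosen with earlier results of these data known. All 10 genes are named, other list genes where they passed or belong to the pathway's core, and the 5 genes most like the mean of the 10.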

Additional observations from a re-analysis of the deposited data

Results flagged for a closer look

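In 40 sets of values (10 genes in 4 groups) the highest or lowest mouse was compared with its nearest neighbor by Dixon's ratio. This is the gap divided by the range of the group. By chance about 1 in 20 sets exceeds the 95% critical value if the sets are independent and the values normally distributed. Here the sets share mice and some of the genes are correlated, so that rate need not hold. Of the 40 sets 5 exceeded the critical value. Of these, 3 belonged to KO_MR_7629: Hpx at 4591 CPM against 3559 in the next mouse (ratio 0.763), Lcn2 at 5.02 against 1.84 CPM (ratio 0.710) and Apcs at 439 against 190 CPM (ratio 0.704). The mouse KO_CON_7620 had Orm3 at 6.48 CPM against 2.43 in the next mouse (ratio 0.682), and KO_CON_7621 had Apcs at 138 CPM against 84.6 (ratio 0.686). The critical value for 6 mice is 0.625. The cause of these values was not tested.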

How the results depend on the processing

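Each result was recomputed under up to 10 alternatives and in 22 fits that left out 1 mouse. The falls of Saa1, Saa2 and Orm3 in both genotypes, of Orm2 and Lcn2 in WT and of Orm1 and Hp in NRF2 KO passed in each of these in which the gene was tested. With quality weights over all 24 mice Lcn2 (-1.69) and Hpx (-0.37) also passed as lower on MR in NRF2 KO. The 10 genes gave 8 calls for MR in WT, and 5 where every mouse needed at least 10 counts, a filter that removes Orm2, Orm3 and Lcn2; leaving out 1 mouse gave from 5 (without WT_MR_7615, which lost Orm1, Hp and Apcs) to 8. For genotype on MR the 0 calls became 1, Itih4, with library size alone, with at least 10 counts in every mouse, with DESeq2, with only the groups compared, over all 24 mice and with quality weights, and ran from 0 to 1 when 1 mouse was left out. Direction turned only in values that did not pass: Itih4 for MR in WT was 0.033 with library size alone. Itih4 for MR in NRF2 KO ran from -0.014 without KO_MR_7629 to 0.10. Saa1 for genotype on Con was 0.042 with the deposited normalized values, 0.17 over all 24 mice with quality weights, and from -0.30 to 0.37 without 1 mouse. Lcn2 for genotype on MR ran from -0.0083 without KO_MR_7629 to 0.87. The interaction of the summed orosomucoids was -0.42, against 1.12 for Orm2 alone. The cause of these changes was not tested. No paired analysis was possible because no mouse number occurs in more than one group. Depth limits Orm2, Orm3 and Lcn2 most, with 0 to 30 counts in the WT MR libraries.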
